A study of Mus musculus with 6 samples.

Results

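The G1 cyclins, their kinases and the inhibitors that restrain them were followed as a family of 10 genes in mouse embryonic stem (ES) cells with and without Zscan5b, which encodes a SCAN-domain zinc finger protein. The genes were taken by name: Ccnd1, Ccnd2, Ccnd3, Ccne1, Ccne2, Cdk2, Cdk4, Cdk6, Cdkn1b and Cdkn2a. All gene probes carrying those names were used, which gave 16 of the 39429 gene probes on the array, for 10 of its 27459 named genes. Total RNA labelled with Cy3 was hybridised to 1-colour Agilent arrays, with 3 wild type and 3 Zscan5b knockout samples that the series describes as biological replicates. Both genotypes were cultured undifferentiated with leukemia inhibitory factor on mouse embryonic fibroblast feeders inactivated with mitomycin C, and no other allele or treatment is labelled for either group. Where the gene was disrupted, by which method, and how many clones the knockout arrays represent are not in the labels.

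Passage from G1 into S phase is driven by D-type cyclins bound to Cdk4 or Cdk6 and by E-type cyclins bound to Cdk2. These complexes phosphorylate the retinoblastoma family of pocket proteins and thereby free E2F factors to transcribe S phase genes. Cdkn1b encodes p27, an inhibitor of cyclin-kinase complexes, and Cdkn2a encodes the Cdk4/6 inhibitor p16 and, from another reading frame, the p53 regulator ARF. Mouse ES cells are known for a short G1 phase, with high cyclin E and Cdk2 activity and little reliance on the pocket protein brake.

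On each array between 25371 and 27754 gene probes were well above background, and the signal at the 75th percentile ranged from 852 to 1030. The wild type arrays all came from one slide and the knockout arrays from another, so slide and genotype cannot be told apart in any value below. Zscan5b itself differed by -1.32 ± 0.29 on the log2 scale (knockout minus wild type, SE, 3 arrays a group), lower on every knockout array but short of the threshold (limma adjusted p = 0.107). Its probe stayed well above background on all 6 arrays, the knockout ones included. The probe may lie outside the disrupted part, in which case it checks nothing. All 12 ES cell markers examined, Pou5f1, Sox2 and Nanog among them, were well above background on all 6 arrays. Over all 26649 probes tested with limma, 124 (0.465%) passed an adjusted p of 0.05, and the lowest and highest values of the 2 groups left a gap in 29.1% of probes.

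None of the G1 genes passed that test, but several separated the genotypes on every array, in opposite directions for drivers and for an inhibitor of the cycle. Ccnd1, Ccnd2 and Cdk4 read lower in all 3 knockout arrays than in any wild type array, at log2 fold changes (knockout minus wild type) of -0.74, -1.35 and -0.53. Cdkn1b read higher in all 3 knockout arrays, at 0.62. Ccnd3, Cdk2, Cdk6 and Cdkn2a overlapped between the groups, as did Ccne1, and Ccne2 was not measurable. Of the 16 probes 15 could be tested, and 0 passed in limma, where 0.465% of all probes did (0.124% higher and 0.341% lower), with adjusted p from 0.0712 to 0.941. At an unadjusted p of 0.05 there were 2 higher and 6 lower probes, or 53.3% against a background of 21.9% (10.6% higher and 11.3% lower). The groups left a gap at 2 higher and 5 lower probes, or 46.7% against a background of 29.1% (13.7% higher and 15.4% lower). Each gene was also counted once, by its brightest tested probe. By that count 0 of 9 genes passed, as 0.458% of 19008 named genes did (0.0894% higher and 0.368% lower). At an unadjusted p of 0.05, 1 gene was higher and 4 were lower, or 55.6% against 21.7% (9.52% higher and 12.1% lower). A gap was left by 1 higher and 3 lower genes, or 44.4% against 28.8% (12.4% higher and 16.4% lower). The median log2 fold change was -0.24 for the 9 genes and -0.03 for all named genes. These shares rest on few genes, and probes of one gene are not independent. The genes were also chosen with earlier results of these data known, so the shares cannot be weighed against the background.

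**Figure D1:**
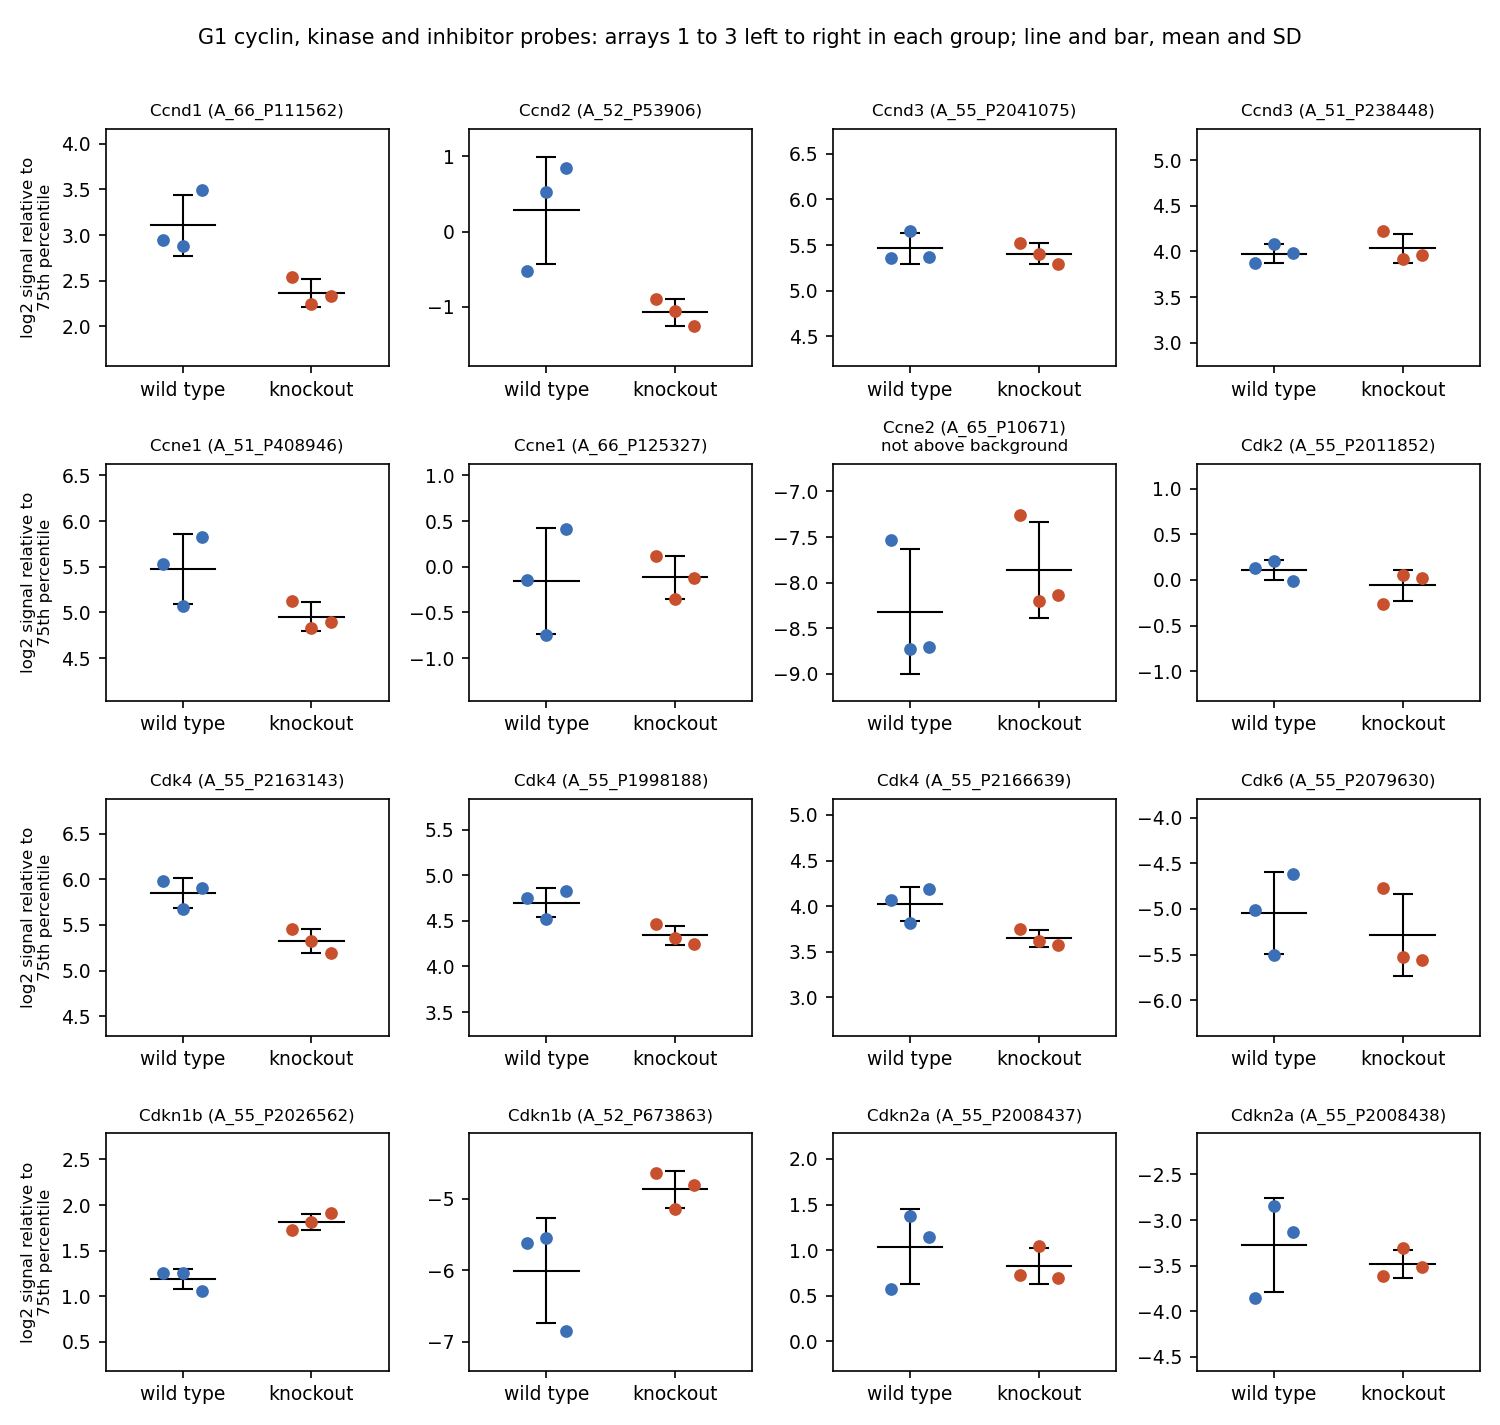
Log2 signal, scaled to the 75th percentile of its array, for all 16 probes, with 1 point per array, arrays 1 to 3 placed left to right within wild type (blue) and knockout (red), and the mean and SD in black. Each panel has its own vertical range. The knockout points of Ccnd1, Ccnd2 and all 3 Cdk4 probes lie below every wild type point, those of both Cdkn1b probes lie above, and the Ccne2 probe was not above background on any array.

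Values in the following account are log2 signals relative to the 75th percentile of the same array, where 0 is that percentile itself. Ccnd1, the D-type cyclin that responds to growth factor signalling, was read by 1 probe (A_66_P111562, mm9 chromosome 7, 152116202 to 152116261). It gave 2.95, 2.88 and 3.49 on wild type arrays 1 to 3 and 2.54, 2.24 and 2.33 on knockout arrays 1 to 3. The lowest wild type array stood 0.34 above the highest knockout array. The change was -0.74 ± 0.19 (SE, n = 3 per group), a signal 1.67-fold lower in the knockout, with a 95% interval from -1.20 to -0.28 and a limma adjusted p of 0.128. The exact two-sided permutation test over arrays gave 0.1, the smallest p that 3 against 3 arrays allow.

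Ccnd2, the D-type cyclin prominent in neural, gonadal and lymphoid cells, differed most among the D cyclins and was also the most variable in wild type. Its probe (A_52_P53906, mm9 chromosome 6, 127098696 to 127098755) read -0.52, 0.52 and 0.84 on the wild type arrays and -0.90, -1.05 and -1.26 on the knockout arrays. Wild type replicate 1 stood closer to the knockout arrays than to the other wild type arrays, with a gap of 0.37 to the highest knockout array. The wild type SD was 0.71 against 0.18 in the knockout (n = 3). The change was -1.35 ± 0.35 (SE), a 2.55-fold lower signal, with a limma adjusted p of 0.13. When wild type replicate 1 was left out it was -1.75 and passed in limma (adjusted p = 0.0255, from 0.0255 to 0.382 over the settings tried). Of all 26648 probes tested without that array, 640 passed.

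Ccnd3, the D-type cyclin common to many tissues, overlapped between the genotypes at both of its probes. The brighter probe (A_55_P2041075, mm9 chromosome 17, 47736579 to 47736638) read 5.36, 5.66 and 5.37 on the wild type arrays and 5.52, 5.40 and 5.29 on the knockout arrays. The dimmer (A_51_P238448), at a start 312 bases away, read 3.87, 4.08 and 3.98 against 4.22, 3.92 and 3.96. The log2 fold changes were -0.06 (95% interval -0.37 to 0.25) and 0.05 (-0.25 to 0.36). Their sign turned under other scalings. The estimate for Ccnd1 (-0.74) lies outside both intervals, but its own interval, from -1.20 to -0.28, overlaps that of the brighter Ccnd3 probe.

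The change of Ccnd1 differed from that of Ccnd3 by -0.68 ± 0.26 within arrays (SE, n = 3 per group), a comparison in which any common scaling of an array cancels. That of Ccnd2 differed from Ccnd3 by -1.29 ± 0.39. In both pairs the groups did not overlap, and the exact permutation p was 0.1, or 0.2 after Benjamini-Hochberg adjustment over the 6 pairs of G1 genes compared in this way. Ccnd2 and Ccnd1 could not be separated from each other (-0.61 ± 0.34, exact permutation p = 0.3, adjusted 0.36).

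The 60-base probe of Ccnd2 is shown because a single oligonucleotide carries the whole Ccnd2 result, beside the Cdk4 probe that comes from the most 5′ of the 3 places read along that gene. Sequences are those in the scanner files, written 5′ to 3′.
Ccnd2 probe A_52_P53906: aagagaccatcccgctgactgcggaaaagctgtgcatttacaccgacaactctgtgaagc
Cdk4 probe A_55_P2166639: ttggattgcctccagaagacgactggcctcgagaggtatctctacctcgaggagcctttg

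Cyclin E1, encoded by Ccne1, activates Cdk2 at the G1/S boundary. Its bright probe (A_51_P408946, mm9 chromosome 7, 38882937 to 38882960) read 5.53, 5.07 and 5.83 on the wild type arrays and 5.13, 4.83 and 4.90 on the knockout arrays. Wild type replicate 2 lay below knockout replicate 1, so the groups overlapped. The change was -0.52 ± 0.21 (SE, limma adjusted p = 0.222). Leaving out wild type replicate 2 gave -0.72, which passed in limma (adjusted p = 0.0482, from 0.0482 to 0.599 over the settings). So did 2557 of all 26649 probes without that array. The other Ccne1 probe (A_66_P125327), at a start 2637 bases away, did not read the same way. It gave -0.14, -0.75 and 0.41 on the wild type arrays and 0.12, -0.35 and -0.12 on the knockout arrays, a change of 0.04 with an interval from -0.69 to 0.78 whose sign depended on the setting. Which of the probes better represents the cyclin E1 transcript was not tested. Ccne2, the other E-type cyclin, was not well above background at its only probe on any of the 6 arrays, and no fold is given.

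Cdk4, a kinase activated by D-type cyclins, read lower at all 3 of its probes, which are spread over 1177 bases of mm9 chromosome 10. The brightest probe (A_55_P2163143, 126504279 to 126504338) read 5.98, 5.67 and 5.90 on the wild type arrays and 5.45, 5.32 and 5.19 on the knockout arrays, with unscaled signals from 43500 to 55600 against 32700 to 45100. After scaling the groups were 0.22 apart. The change was -0.53 ± 0.13 (SE), a 1.44-fold lower signal, with a limma adjusted p of 0.12. The probe A_55_P1998188 read 4.75, 4.52 and 4.83 against 4.46, 4.31 and 4.25, a change of -0.36, with only 0.06 between the groups. The probe A_55_P2166639 read 4.07, 3.82 and 4.19 against 3.75, 3.62 and 3.57, a change of -0.38, with 0.07 between the groups. Their adjusted p were 0.186 and 0.184. Wild type replicate 2 was the lowest wild type array at each of the 3 probes. When it was left out, the brightest probe gave -0.62 and passed in limma (adjusted p = 0.0439, from 0.0439 to 0.369 over the settings). Without that array 2557 of all 26649 probes passed.

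The other kinases showed no separation. Cdk2, the partner of cyclin E, read 0.13, 0.21 and -0.01 on the wild type arrays and -0.26, 0.06 and 0.02 on the knockout arrays at its only probe (A_55_P2011852, mm9 chromosome 10, 128135658 to 128135717). Its change was -0.17 with an interval from -0.48 to 0.14. Cdk6, the other partner of D-type cyclins, was dim at its probe (A_55_P2079630, mm9 chromosome 5, 3522106 to 3522165), with unscaled signals from 18.7 to 37.9 that were still well above background on all 6 arrays. It read -5.01, -5.51 and -4.62 on the wild type arrays and -4.77, -5.53 and -5.56 on the knockout arrays, and its interval ran from -0.97 to 0.50. The change of Cdk4 was not distinguishable within arrays from that of Cdk2 (difference -0.35 ± 0.22, exact permutation p = 0.2, adjusted 0.30) or of Cdk6 (-0.29 ± 0.27, exact permutation p = 0.4, adjusted 0.40). The smallest p this test allows is 0.1, so it could not have separated any pair at 0.05. Whether Cdk4 alone among the kinases read lower is therefore not settled.

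Cdkn1b had the smallest p of the family. Its bright probe (A_55_P2026562, mm9 chromosome 6, 134875424 to 134875483) read 1.26, 1.25 and 1.06 on the wild type arrays and 1.73, 1.81 and 1.91 on the knockout arrays. The groups were 0.47 apart, against SDs of 0.11 and 0.09 (n = 3). The change was 0.62 ± 0.11 (SE), a 1.54-fold higher signal with an interval from 0.36 to 0.89. It missed the threshold over all probes (limma adjusted p = 0.0712), ranking 401 by p among the 26649 probes. Weighting the arrays by their spread gave 0.65 with an adjusted p of 0.0435. Leaving out wild type replicate 2 gave 0.65 with an adjusted p of 0.0411, and over all settings the adjusted p ran from 0.0411 to 0.297. Of the 26649 probes, 642 passed with arrays weighted and 2557 without wild type replicate 2. The dim Cdkn1b probe (A_52_P673863), placed 1818 bases upstream and annotated to an Ensembl transcript, also read higher. It gave -5.62, -5.55 and -6.85 in wild type, where 2 of 3 arrays were well above background, and -4.64, -5.15 and -4.81 in the knockout. Its change was 1.14 ± 0.37 (SE, adjusted p = 0.172), but a normexp correction with an offset of 50 reduced it to 0.29, and leaving out wild type replicate 3 reduced it to 0.72.

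Cdkn2a was measurable and overlapped between the genotypes at both probes, which the file assigns to 2 RefSeq transcripts each, so p16 and ARF messages were not told apart. The brighter probe (A_55_P2008437, mm9 chromosome 4, 88920405 to 88920464) read 0.58, 1.38 and 1.15 on the wild type arrays and 0.73, 1.05 and 0.69 on the knockout arrays, a change of -0.22 with an interval from -0.77 to 0.34. The dimmer (A_55_P2008438) read -3.85, -2.85 and -3.13 against -3.61, -3.31 and -3.51, a change of -0.20. Wild type replicate 1 was the lowest of the 6 arrays at both probes. Within arrays the change of Cdkn1b exceeded that of Cdkn2a by 0.84 ± 0.30, with the groups apart and an exact permutation p of 0.1 (adjusted 0.20).

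**Figure D2:**
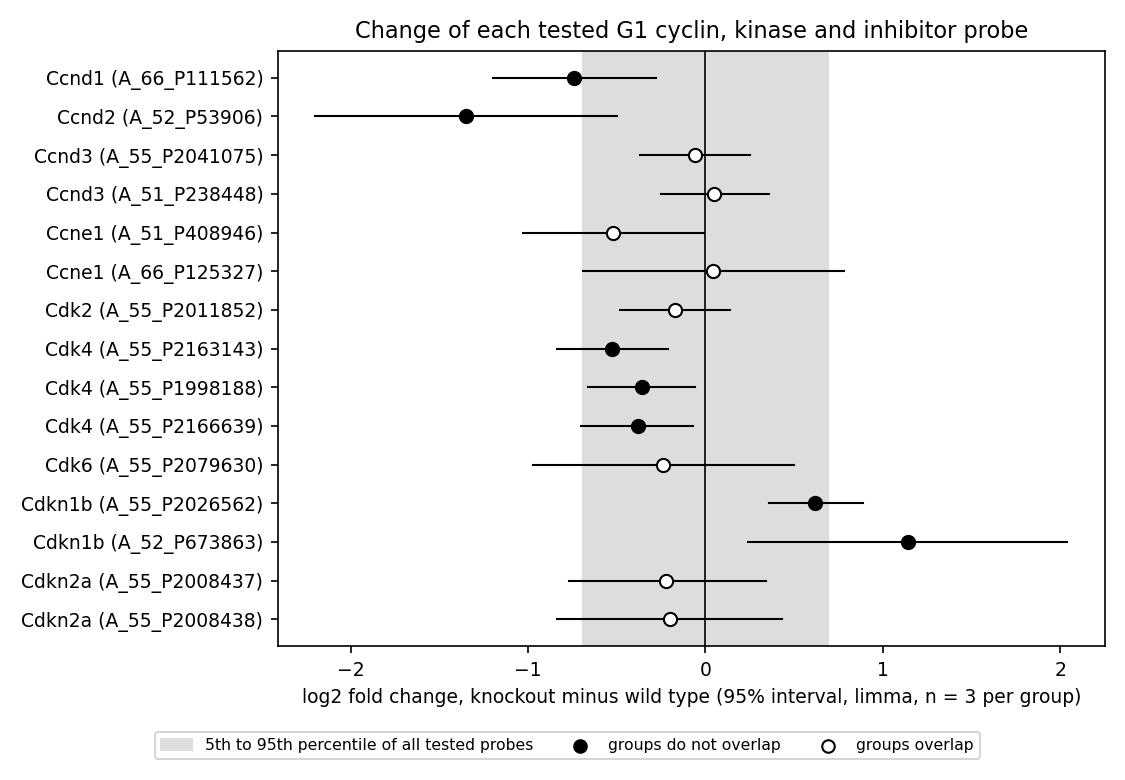
Log2 fold change (knockout minus wild type) of the 15 tested probes with the 95% interval of the limma fit. Filled points mark probes whose groups do not overlap, open points those that overlap, and the grey band holds the 5th to 95th percentile of all tested probes, from -0.69 to 0.69. Ccnd1 and Ccnd2 lie beyond the band on the lower side and the dim Cdkn1b probe beyond it on the higher side.

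The promoters of Cdk4 and Cdkn1b are shown because these genes stood apart from wild type in opposite directions at more than one probe. They are RefSeq sequences on GRCm38.p6, from 250 bases before to 50 after the annotated start, and 7 of the 10 genes had an entry. Ccnd1, Ccnd2 and Ccne2 had none. In the Cdk4 promoter (chr10:127063285-127063584, plus strand) capitals mark CACGTG, the E-box bound by Myc and related factors, which occurs 4 times, at -172, -118, -98 and -11 bases from the start. The motif is its own reverse complement and was found in 7.15% of all 32851 promoter entries, 4 or more times in 8 of them, a count chosen after the Cdk4 promoter was seen. In the Cdkn1b promoter (chr6:134920151-134920450, plus strand) capitals mark the GC box GGGCGG, found once, and CCAAT, found 3 times and written ATTGG where it lies on the other strand, each searched on both strands. They occur in 35.7% and 37.4% of all entries. E2F sites, searched as TTTCCCGC, TTTCGCGC, TTTGGCGC and TTTGCCGC on both strands, were found once each in the Cdk2 entry and in 1 of the 2 Cdkn2a entries, and in 2.26% of all entries. These matches describe letters in a window and say nothing of binding.
Cdk4 promoter: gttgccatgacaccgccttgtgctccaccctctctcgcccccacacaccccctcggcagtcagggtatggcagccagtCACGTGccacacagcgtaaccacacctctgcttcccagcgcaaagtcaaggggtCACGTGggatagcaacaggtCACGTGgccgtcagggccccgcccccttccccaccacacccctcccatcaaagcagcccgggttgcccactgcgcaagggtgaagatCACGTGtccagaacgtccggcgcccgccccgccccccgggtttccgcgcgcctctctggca
Cdkn1b promoter: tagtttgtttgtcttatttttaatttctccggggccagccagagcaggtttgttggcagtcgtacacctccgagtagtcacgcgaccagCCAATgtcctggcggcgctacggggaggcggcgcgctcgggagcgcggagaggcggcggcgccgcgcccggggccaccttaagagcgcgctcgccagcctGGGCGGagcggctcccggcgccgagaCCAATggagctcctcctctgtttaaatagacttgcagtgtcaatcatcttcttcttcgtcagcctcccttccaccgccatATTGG

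Markers of the feeder fibroblasts differed between arrays in a way that some G1 genes shared. All 29 tested markers of 30 were well above background on every array. Their mean, centred over the 6 arrays, was -0.61, 1.07 and 0.76 in wild type replicates 1 to 3 and -0.62, -0.15 and -0.46 in the knockout (exact permutation p = 0.3). Wild type replicate 1 thus lay within the knockout range for this mean. The median log2 fold change of the markers was -0.74, with 28 of 29 negative, where 53.6% of all named genes were. The groups left a gap in 3 lower and 0 higher markers, against backgrounds of 16.4% and 12.4% of named genes. At an unadjusted p of 0.05, 6 were lower and 0 higher (backgrounds 12.1% and 9.52%). When wild type replicate 1 was left out the median was -1.28, and 12 markers passed in limma, all of them lower. In that setting 640 of all 26648 probes passed. S100a4, for example, a gene of fibroblasts, read 0.07, 3.47 and 3.36 on the wild type arrays and -0.09, 0.03 and -0.74 on the knockout arrays. Col1a1, which encodes a collagen chain, read 1.73, 3.16 and 3.22 against 1.14, 1.97 and 1.45. Both were chosen as examples after their values were seen, and Serpinh1 (-0.65 ± 0.13) and Vim (-0.74 ± 0.18) had the smallest p of the list. Ccnd2 had the same high arrays, wild type replicates 2 and 3, which exceeded replicate 1 by 1.20 on average. Cdkn2a exceeded it there by 0.69. In bulk RNA, fewer cells of a type and less RNA per cell cannot be told apart, and the part of feeder RNA in these values was not tested.

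Single markers were not level on wild type replicate 1, which lay above all knockout arrays at 3 of the 29, below all of them at 11 and within their range at 15. On that array Ccnd2 was 0.55 above the knockout mean, against 1.75 for the mean of the other wild type arrays. Ccnd1 was 0.58 above it, against 0.82. Cdk4 was 0.65 above it, against 0.46 for the others, and Cdkn1b 0.55 below it, against 0.66 below for the others (-0.55 and -0.66). These values rest on a single array.

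**Figure D3:**
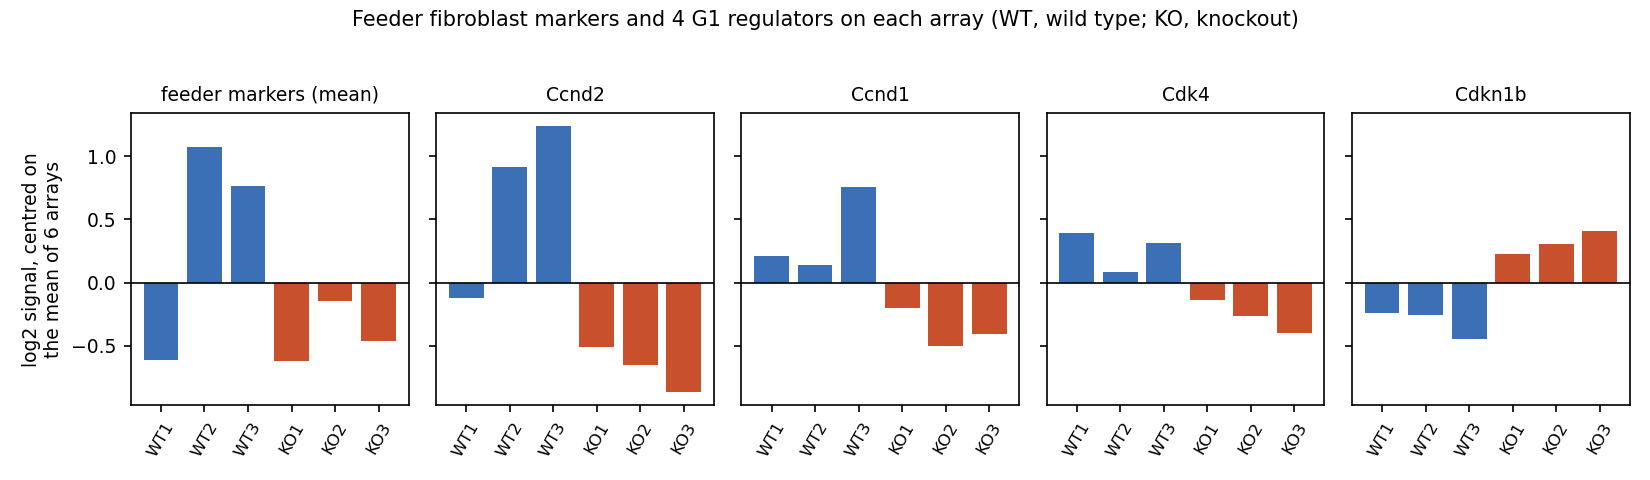
Centred log2 signal on each array for the mean of 29 feeder fibroblast markers and for Ccnd2, Ccnd1, Cdk4 and Cdkn1b at their brightest tested probes, with wild type (WT) in blue and knockout (KO) in red. Feeder markers and Ccnd2 are both highest on wild type replicates 2 and 3. All 4 genes separate the genotypes on every array, including wild type replicate 1, where the feeder mean is -0.61.

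Other genes of the G1/S pathway were taken from lists, also chosen with earlier results of these data known, and tested in the same fit. No gene on any of the lists, markers included, passed over all probes in limma. With arrays weighted 5 list genes passed. Without wild type replicate 1 there were 15 (12 of them feeder markers), and without wild type replicate 2 again 15. Over all probes, 642 of 26649, 640 of 26648 and 2557 of 26649 passed in these settings, in the same order. In the other settings 0 list genes passed. Among 13 pocket protein and E2F genes, 6 were positive and 7 negative, with a median of -0.03. At an unadjusted p of 0.05, 1 was higher and 2 were lower, where 9.52% and 12.1% of all named genes were. Tfdp1, the dimerisation partner of E2F factors, read 2.37, 2.31 and 2.40 on the wild type arrays and 1.88, 1.87 and 1.93 on the knockout arrays, with little spread in either group (-0.47 ± 0.09, adjusted p = 0.0872). It passed with arrays weighted (-0.49, adjusted p = 0.0488). E2f5, a repressive E2F, read 0.58 ± 0.19 (adjusted p = 0.177). With wild type replicate 2 left out, 2 higher and 3 lower genes of this list passed in limma, Rb1 at 0.84 and E2f5 at 0.75 against E2f3 at -0.53, E2f8 at -0.64 and Tfdp1 at -0.49. Their adjusted p there lay between 0.0382 and 0.0493, and Rb1, E2f3 and E2f8 are named for that outcome. With all arrays the groups overlapped at Rb1 (0.51 ± 0.29, limma adjusted p = 0.338) and E2f3 (-0.36 ± 0.16, adjusted p = 0.244). E2f8 then read -0.48 ± 0.17 (adjusted p = 0.186).

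Of the other CDK inhibitors 5 of 6 were positive, with a median of 0.21, and 0 had an unadjusted p below 0.05 (background 21.7%). Cdkn2c, which encodes the Cdk4/6 inhibitor p18, read 0.68 ± 0.30 (adjusted p = 0.246) and passed at 1.01 with wild type replicate 2 left out (adjusted p = 0.0411). Cdkn2b, which encodes p15 and lies beside Cdkn2a, read -0.94, 0.45 and 0.82 on the wild type arrays and -0.97, -0.63 and -1.14 on the knockout arrays (-1.02 ± 0.46, adjusted p = 0.248). It passed at -1.55 with wild type replicate 1 left out (adjusted p = 0.0336). Its high arrays were again wild type replicates 2 and 3, where the feeder markers were high.

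Of 20 tested regulators of cyclin-kinase activity and turnover 15 were negative, with a median of -0.11, where 53.6% of all named genes were negative with a median of -0.03. An unadjusted p under 0.05 was reached by 1 higher gene and 3 lower genes, against backgrounds of 9.52% and 12.1%. The groups left a gap in 6 lower genes and 1 higher gene, against backgrounds of 16.4% and 12.4% of named genes. The mean of this list did not overlap, from 0.03 to 0.10 in wild type and from -0.08 to -0.01 in the knockout (exact permutation p = 0.1). Uhrf2, a ubiquitin ligase linked to the cell cycle, read 0.37 ± 0.12 (adjusted p = 0.174) and Ccnc, the cyclin of the Mediator kinase module, -0.32 ± 0.11 (adjusted p = 0.188). Skp2, the F-box protein that marks p27 for degradation, read 0.63, 0.70 and 0.79 on the wild type arrays and 0.51, 0.42 and 0.38 on the knockout arrays. Its change was -0.27 ± 0.10 (adjusted p = 0.198), with all knockout arrays below all wild type arrays. It was named after its value was seen, for its known link to p27, the protein that Cdkn1b encodes. A link between its RNA and that of Cdkn1b was not tested. Cul1, the scaffold of the ubiquitin ligase that contains Skp2, read -0.33 ± 0.22 with overlapping groups (limma adjusted p = 0.386). It passed at -0.57 in limma with wild type replicate 2 left out (adjusted p = 0.0468).

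E2F-responsive S phase genes are transcribed once G1 kinases act on pocket proteins. Of 21 such genes 16 were negative and 5 positive, with a median of -0.09 and 1 in each direction at an unadjusted p of 0.05, against the same backgrounds. Cdc45, a part of the replicative helicase, read 0.43 ± 0.10 (adjusted p = 0.11) and Tyms, which makes thymidylate, -0.31 ± 0.11 (adjusted p = 0.196). The list mean overlapped between the genotypes, from -0.02 to 0.11 in wild type and from -0.10 to 0.06 in the knockout. Its median turned to 0.02 under quantile normalization. The means of the pocket protein and E2F list and of the other CDK inhibitors also overlapped. Among 13 cyclins and kinases of later phases 9 were positive, with a median of 0.08 (0.02 under normexp and 0.22 under quantile normalization). At an unadjusted p of 0.05, 4 were higher and 0 lower, against backgrounds of 9.52% and 12.1%. The mean of this list did not overlap, from -0.21 to -0.02 in wild type and from 0.04 to 0.15 in the knockout. Its exact permutation p was 0.1, the smallest that 3 against 3 arrays allow. The groups left a gap in 6 higher and 0 lower genes (backgrounds 12.4% and 16.4%). Cdc25b, a phosphatase that activates mitotic kinases, read 0.56 ± 0.12 (adjusted p = 0.108). Ccna1, a cyclin best known from the germline, was dim and read 1.23 ± 0.29 (adjusted p = 0.114), and it passed at 1.48 when wild type replicate 2 was dropped (adjusted p = 0.0378) and at 1.42 with arrays weighted (adjusted p = 0.0471).

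Markers of differentiated endoderm and trophoblast also differed between the groups, although none passed over all probes. Of 11 tested, 8 were positive with a median of 0.69, and the groups left a gap in 6 higher genes and 1 lower gene (backgrounds 12.4% and 16.4%). The higher ones were the keratins Krt8 (1.18 ± 0.27) and Krt18 (0.69 ± 0.18) and the transcription factors Sox17 (1.17 ± 0.30), Gata4 (1.37 ± 0.38), Eomes (0.77 ± 0.24) and Foxa2 (1.58 ± 0.56), with limma adjusted p from 0.112 to 0.194. The centred mean of all 11 was -0.46, 0.19 and -0.49 on the wild type arrays and 0.15, 0.28 and 0.29 on the knockout arrays, which overlap. Lower were Sox7, an endodermal factor (-1.25 ± 0.22, adjusted p = 0.072), and Dab2, an adaptor protein (-1.22 ± 0.19, adjusted p = 0.077, with wild type replicate 1 dropped as an outlier spot). Sox7, Sox17, Gata4 and Foxa2 were dim, with wild type means from -3.73 to -6.06, and Foxa2 was well above background on 2 of 3 wild type arrays. Under normexp the median of the list was 0.48. Afp and Ttr were not well above background on any array. Cdx2 and Hand1 were so on at most 1 array at any probe and were not tested. With wild type replicate 2 left out Gata4 (1.80), Sox17 (1.52), Eomes (1.03) and Sox7 (-1.15) passed, with arrays weighted Gata4 (1.68), Sox17 (1.42) and Sox7 (-1.20), and with wild type replicate 1 left out Sox7 (-1.45) and Dab2 (-1.22). The part of such cells in the values of the G1 genes was not tested.

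The ES cell markers had a median of 0.05, with 7 of 12 positive. Pou5f1, a core pluripotency factor, read -0.47 ± 0.10 (limma adjusted p = 0.104) and Nanog 0.66 ± 0.22 (adjusted p = 0.175). With wild type replicate 2 left out Lin28a (-0.74), Utf1 (-0.77) and Pou5f1 (-0.50) passed. Lin28a and Utf1 are named for these outcomes. Of the endoderm and trophoblast markers, Gata4, Sox17 and Eomes are named for passing in such settings. Krt8, Krt18 and Foxa2 are named because their groups left a gap. With all arrays the groups overlapped at Lin28a (-0.44 ± 0.27, limma adjusted p = 0.366) and Utf1 (-0.49 ± 0.26, adjusted p = 0.317).

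**Figure D4:**
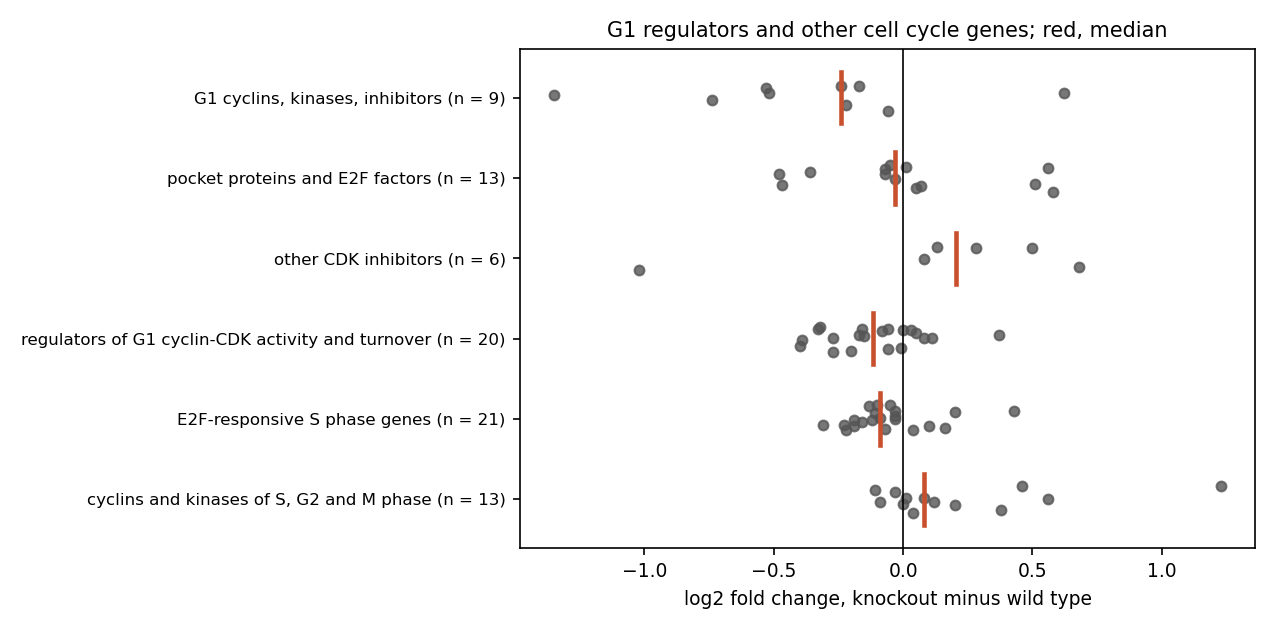
Log2 fold change (knockout minus wild type) of the 9 tested G1 cyclin, kinase and inhibitor genes and of 5 lists of related genes, with 1 point per gene at its brightest tested probe, spread vertically for legibility, and the median in red. The medians run from -0.24 for the G1 genes to 0.21 for the other CDK inhibitors.

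Genes with the most similar pattern over the 6 arrays were found by the root mean square distance between log2 values centred on each gene's mean, among 15177 other named genes. This describes likeness only, and the distance grows with the size of a gene's own variation, which was 0.122 for Ccnd3 and 0.798 for Ccnd2 on the same measure. Within a distance of 0.15 lay 3 genes for Ccnd2, 20 for Cdk6, 60 for Ccnd1, 136 for Cdkn2a and 327 for Cdkn1b. There were 414 for Ccne1, 1069 for Cdk4, 1820 for Cdk2 and 2815 for Ccnd3. For most G1 genes the named ones are thus the closest of many. For Cdkn1b the closest were Pdxp (distance 0.0344) and Inafm1 (0.0396), with log2 fold changes of 0.58 and 0.61. For Cdk4 they were Wdr12 (0.021) and Tmem223 (0.0235), at -0.51 and -0.49. For Ccnd2 they were Lrrk2 (0.124) and Il33 (0.125) at -1.29 and -1.22. For Ccnd1 they were Zhx3 (0.0687) and C1qtnf1 (0.0779). For Ccne1 they were Klf12 and Nop2, both under 0.04 away. Ccnd3 was closest to Mcee (0.0287) and Crlf3 (0.0289), and Cdk2 to Banf1 (0.0391) and Ddost (0.0443). Cdk6 was closest to Ttll13 (0.0826) and Rrp12 (0.0913), and Cdkn2a to Olfr441 (0.0592) and Lrrfip1 (0.0718).

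The deposited table of the authors held the same arrays as log2 values centred on each probe's median. In a limma fit on it, 0 of the 15 tested G1 probes passed, as in the scanner values. The deposited values correlated at 0.986 to 0.996 per array with the scaled scanner values centred in the same way. The match is therefore no separate check. In the authors' deposited table Ccnd1, Ccnd2 and Cdk4 had a lower mean, and Cdkn1b a higher mean, in the knockout at each of their probes.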

How the data were processed

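Each of the 6 samples is 1 array. The authors' deposited scanner files hold spot intensity from Agilent Feature Extraction 10.7.3.1 per the file headers (10.3.1.1 per the submitters' processing notes), background-subtracted and detrended, with probe positions on mm9. The authors' deposited table for the series holds log2 values centred per probe (how they were scaled: not given in the sources used here). From the processed signals, without control or outlier spots, log2 was taken, repeated spots were averaged per probe, and the 75th percentile of the array was subtracted. Probes well above background on at least 3 of 6 arrays were tested (67.6%), after leaving out 2 without values in 1 group, with lmFit and eBayes in limma 3.58.1 (R 4.3.3, data.table version 1.17.8), two-sided, with Benjamini-Hochberg adjustment over all tested probes at 0.05. Replicate numbers did not enter the model. Exact permutation tests were two-sided.

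A gene's representative was its brightest tested probe. Genes other than the 10 were named through the RefSeq annotation (GRCm38.p6). Named genes were the 10, Zscan5b, genes of the companion lists that passed (otherwise the pair with the smallest p) and the 2 nearest patterns of each tested gene, besides those stated as chosen later. The 10 genes and the 8 lists were chosen with earlier results of these data known. ES, feeder, and endoderm and trophoblast markers checked the cell type. Alternatives were other background correction, scaling, filters, array weights, priors, the replicate number as a block, the deposited table, and leaving out each array.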

Additional observations from a re-analysis of the deposited data

How the results depend on the processing

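No G1 probe was called in the main setting, and the count stayed at 0 in 13 of 16 settings, the main one included. It was 1 with array weights and from 0 to 3 when each array was left out in turn (1 without wild type replicate 1, 3 without wild type replicate 2). Over all probes the count of 124 became 231 under a shift to the median and 642 with array weights (of 26649 tested). It was 0 under normexp, without a filter, with detection on all 6 arrays, with a trended and robust prior, or with the replicate block. When each array was left out it ran from 0 to 2557. It was 640 of 26648 without wild type replicate 1 and 2557 of 26649 without wild type replicate 2. The deviations of same-numbered arrays correlated at 0.16, 0.23 and -0.14, which shows no consistent pairing, and the numbers were not taken as pairs. Ccnd1, Ccnd2, Cdk2, the Cdk4 probes, Cdk6, both Cdkn1b probes, the brighter Ccne1 and the brighter Cdkn2a probe kept their direction wherever they were tested. With detection on all 6 arrays the dim Cdkn1b probe was not tested. The sign turned at Ccnd3 A_55_P2041075 under quantile normalization (0.07) and without wild type replicate 2 (0.04), at Ccnd3 A_51_P238448 under the median shift (0.00) and without knockout replicate 1 (-0.04), at Ccne1 A_66_P125327 under normexp (0.00), the median shift (-0.01), array weights (-0.23), without wild type replicate 2 (-0.25) and without knockout replicate 1 (-0.08), and at Cdkn2a A_55_P2008438 without wild type replicate 2 (0.01). With each array left out in turn, these 4 probes ran from -0.12 to 0.04, -0.04 to 0.11, -0.25 to 0.33 and -0.49 to 0.01. The causes were not tested. With 3 arrays a group, changes near the width of the intervals given were not resolved.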
